A study of Mus musculus with 8 samples.

Results

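The genes that encode matrix proteases and their inhibitors were followed in CT26 tumours from mice given propranolol, set against tumours from mice given PBS. They were chosen by name alone, as the protein-coding genes of the deposited table whose symbols begin with Mmp, Timp, Adam, Adamts or Adamtsl and a digit. This gave 45 of the 14133 genes in the table, made up of 14 Mmp genes, 3 Timp genes, 13 Adam genes, 11 Adamts genes and 4 Adamtsl genes.

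CT26 is a mouse colon carcinoma cell line, and the tumours had been grown under the skin of wild-type male mice whose strain the labels spell BABL/C. The 4 propranolol tumours came from mice injected into the peritoneum daily from the time their tumours measured 70 to 100 mm3, and the 4 control tumours came from mice given PBS. Propranolol blocks beta-adrenergic receptors. RNA was measured in whole frozen tumours by bulk sequencing, so tumour cells and host cells were read together, and fewer cells of a type cannot be told apart from less RNA per cell. The sources used here state neither age nor dose nor when tumours were taken. The study's design text speaks of duplicates while the titles number 4 tumours in each group, and no label says whether each tumour came from its own animal. The p-values therefore measure the spread between these 8 samples.

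Matrix metalloproteinases (Mmp genes) are zinc enzymes, secreted or held at the cell surface as inactive precursors, that cut collagens, elastin and other matrix proteins. The tissue inhibitors of metalloproteinases (Timp genes) block their active sites. Adam proteins are membrane-anchored and many release the outer parts of cytokines, growth factors and receptors, while Adamts enzymes are secreted and cut proteoglycans and procollagens. Adamts-like proteins share the accessory domains of Adamts enzymes, lack the protease domain and sit in the matrix. In tumours these proteins are made by cancer cells, fibroblasts and infiltrating leukocytes alike.

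Library totals ran from 15483409 to 17511937 counts, and the 45 genes together took 0.212% to 0.263% of them. Reads from the mitochondrial genome made up 1.31% to 2.41%. Counts were scaled to TMM library size (CPM). Summed over 8 T cell markers (Cd3d, Cd8a and others), they ran from 4.86 to 147 CPM in propranolol tumours and from 9.37 to 37.1 CPM in control tumours. The 8 hypoxia response genes summed to 406 to 2473 CPM in propranolol tumours and 373 to 1588 CPM in control tumours. Skeletal muscle genes summed to 5.6 to 86.3 CPM in propranolol tumours and 7.0 to 846 CPM in control tumours, with the 846 in control tumour 4. Of 10 epithelial markers 5 were in the table, led by Krt20, while Epcam and Krt19 were among those absent from it. Of 9 neutrophil markers only S100a9 and Csf3r were in the table, and S100a9 stayed between 0.06 and 1.21 CPM.

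None of the 45 genes differed between propranolol and control tumours after adjustment. At an adjusted p under 0.05 in edgeR's quasi-likelihood test, with Benjamini-Hochberg adjustment over 14006 genes, the count was 0 of 45, against 0 of 14006 genes (0.0%), and the smallest adjusted p among the 45 was 0.999. DESeq2 and limma-voom likewise gave 0 of 45 (0.0% of all genes each). At an unadjusted edgeR p under 0.05 there were 2 of 45 (4.44%), Adamts1 and Adamtsl4, against 1.95% of all tested genes, or 273. With the tumour number as a block there were 3 of 45 (6.67%), Mmp25 being added, against 5.12% of all genes, or 717. Propranolol was higher in 4 of 4 numbered pairs for 6 of 45 members, Adamts1 and Adamtsl4 among them, against 6.93% of all genes. It was higher in 0 of 4 pairs for Adam9, a count for which no share of all genes is given. DESeq2 gave 3 at that level (2.39% of all genes), Mmp25 being the third, and limma-voom gave the 2 (1.78% of all genes). Both edgeR genes had a log2 fold change (propranolol over control) above 0. Of the 273 genes at that level in edgeR, 173 were above 0, which is 1.24% of all tested genes. No member had groups that did not overlap, against 1.63% of all genes. Across the members it was above 0 for 23 and below 0 for 22, where 49.4% of all genes were above 0. Its median was 0.0036 over the members and -0.0022 over all tested genes.

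**Figure D1:**
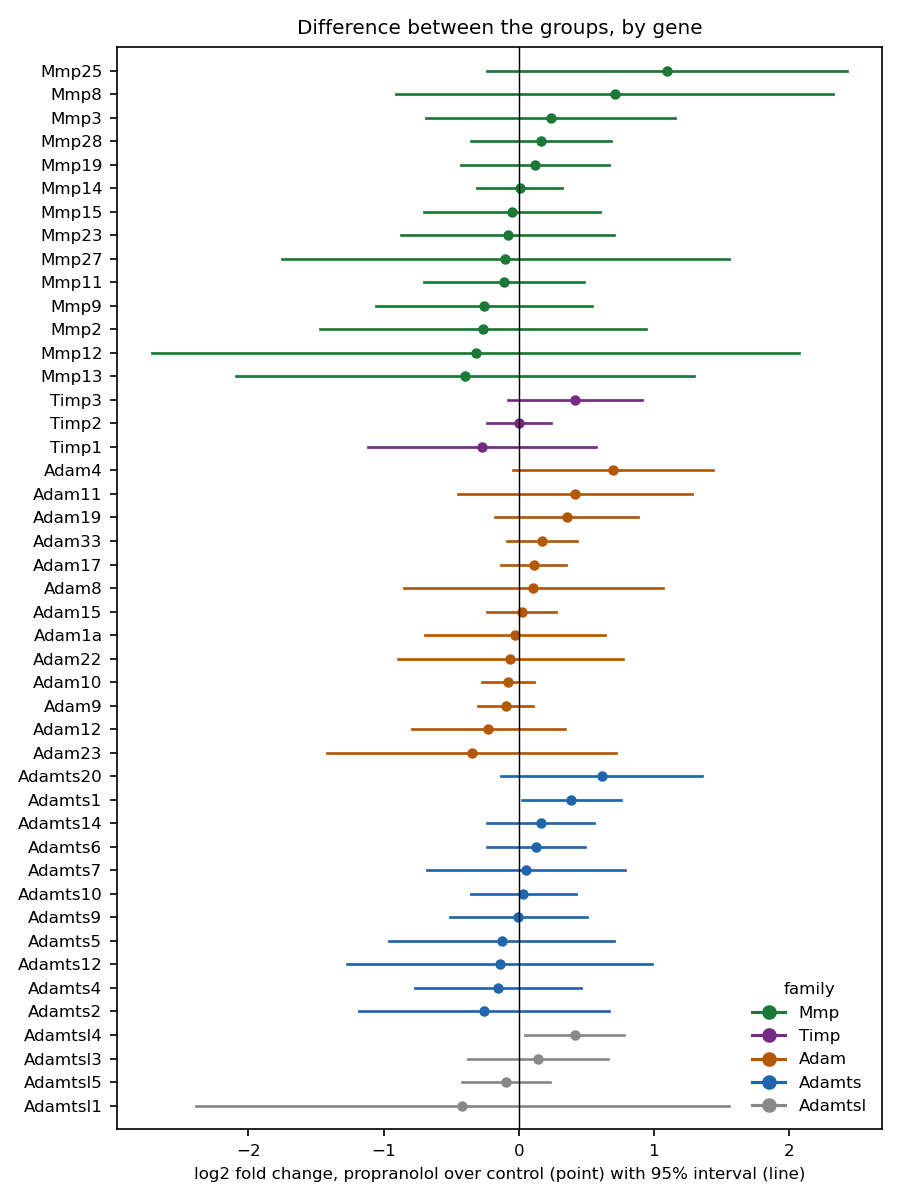
Log2 fold change of each of the 45 genes, propranolol over control, from edgeR (points) with 95% intervals (lines), coloured by family. The intervals of Adamts1 and Adamtsl4 alone lie above 0, none lies below 0, and that of Mmp12 is the widest, from -2.72 to 2.08.

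How much the data could show differed from gene to gene. For 28 of the 45 genes the whole 95% interval lay within 1 on the log2 scale in either direction, and for the other 17 it reached past 1. Timp2, a broad inhibitor that also helps Mmp14 activate the Mmp2 precursor, had one of the narrower intervals, from -0.23 to 0.24. By contrast the interval of Mmp13 ran from -2.10 to 1.29.

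Levels of different genes are compared here in FPKM, which divides reads by gene length. The inhibitors stood highest. Timp1, a secreted inhibitor induced in inflamed and remodelling tissue, averaged 253 ± 94.0 FPKM in propranolol tumours and 305 ± 122 FPKM in control tumours (SD, n = 4 each). Timp2 averaged 139 ± 12.9 FPKM in propranolol tumours and 138 ± 8.58 FPKM in control tumours (SD, n = 4 each). The next levels, averaged over all 8 tumours, were those of Adam9 (39.3 FPKM), Adam33 (32.5 FPKM), Mmp14 (30.7 FPKM), Adam15 (22.1 FPKM), Mmp3 (21.3 FPKM) and Adam10 (21.2 FPKM). Adam33 and Mmp14, neighbours in that order, overlapped over the 8 tumours, at 26.2 to 38.5 FPKM and 25.8 to 35.5 FPKM. In all, 12 members averaged at least 10 FPKM, 20 lay between 1 and 10 FPKM and 13 were under 1 FPKM.

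Summed by family, the inhibitors reached 394 ± 102 FPKM in propranolol tumours and 445 ± 129 FPKM in control tumours (SD, n = 4 each). The Mmp genes summed to 88.8 ± 22.2 FPKM in propranolol tumours and 87.5 ± 18.7 FPKM in control tumours. For the Adam genes the sums were 154 ± 8.59 FPKM in propranolol tumours and 151 ± 6.82 FPKM in control tumours. These family differences were smaller than the SD within either group. Adamts genes summed to 45.9 ± 5.20 FPKM in propranolol tumours and 41.8 ± 4.02 FPKM in control tumours, and Adamtsl genes to 21.6 ± 3.31 FPKM in propranolol tumours and 20.5 ± 2.32 FPKM in control tumours. Timp RNA over Mmp RNA, both in FPKM, was 3.56, 5.87, 4.30 and 4.25 in propranolol tumours 1 to 4, against 4.55, 4.65, 5.87 and 5.16 in control tumours 1 to 4. The ratio overlapped between the groups, with propranolol tumour 1 lowest.

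**Figure D2:**
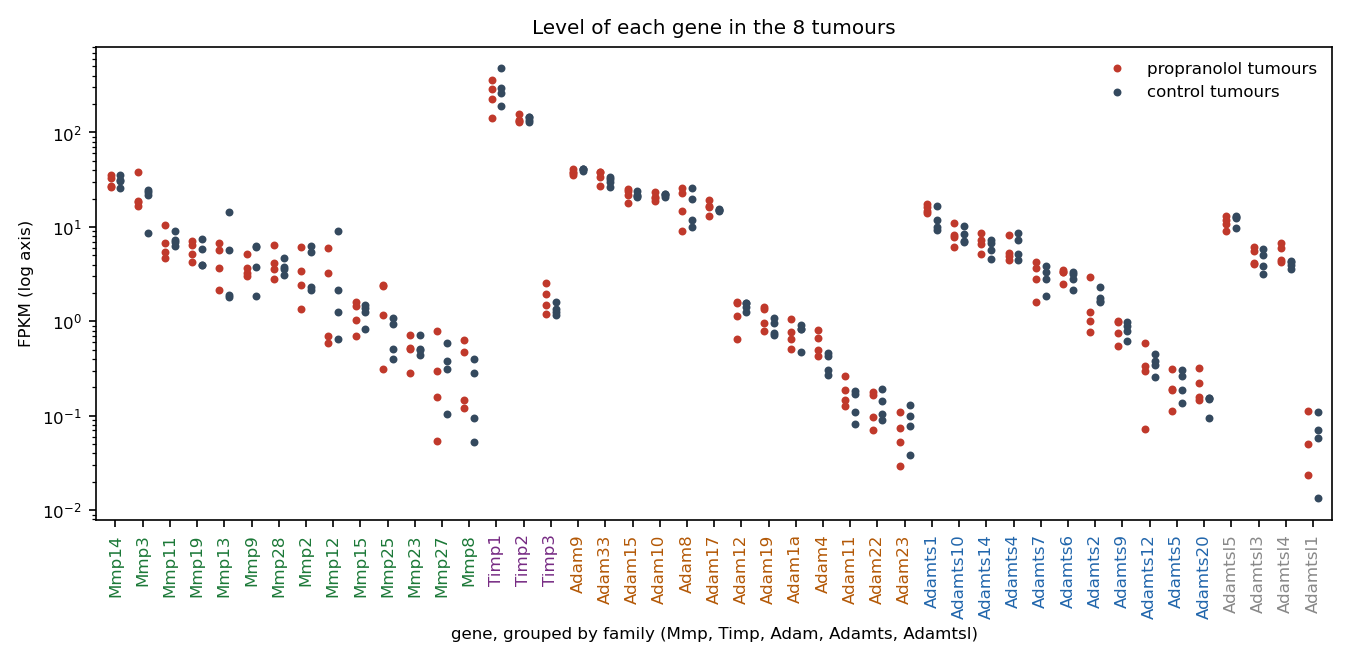
Level of each of the 45 genes in FPKM (log axis) in the 4 propranolol tumours (red) and the 4 control tumours (dark blue), by family. Timp1 and Timp2 lie above 100 FPKM in every tumour, the groups overlap for every gene, and the 1 value at 0 (Adamtsl1, propranolol tumour 2) cannot be drawn on a log axis.

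Among the genes of the table, 5 Mmp genes follow one another on chromosome 9. In the files' build, GRCm39, they run along the plus strand from Mmp13 (7272514 to 7283331) through Mmp12 (7344381 to 7369499), Mmp3 (7445822 to 7455975) and Mmp8 (7558457 to 7568486) to Mmp27 (7571397 to 7581886). The stretch spans 309373 bases and holds no other gene of the table. Genes that are not in the table may lie within it. The promoter windows of Mmp13, Mmp12 and Mmp3 are shown because these 3 neighbours are the genes of the cluster above 1 CPM on average. Each has a window that holds both an AP-1 motif and the letters of a TATA box. Mmp12 has another window, at chr9:7344147-7344446 in GRCm38.p6, that holds neither. That window, and not the one shown, takes in the number of the Mmp12 gene start above (7344381), though the builds differ. The windows shown are RefSeq windows of 300 bases on the plus strand, in build GRCm38.p6, at chr9:7272264-7272563 for Mmp13, chr9:7347124-7347423 for Mmp12 and chr9:7445572-7445871 for Mmp3. Capitals mark, in order, the AP-1 match (TGANTCA) and the TATA box match (TATAAA).
Mmp13: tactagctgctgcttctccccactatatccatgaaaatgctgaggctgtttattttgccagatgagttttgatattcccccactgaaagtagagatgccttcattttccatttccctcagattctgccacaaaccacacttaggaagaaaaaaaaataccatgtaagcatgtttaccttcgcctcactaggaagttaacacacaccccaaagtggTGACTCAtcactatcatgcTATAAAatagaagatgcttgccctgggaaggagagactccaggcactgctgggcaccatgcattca
Mmp12: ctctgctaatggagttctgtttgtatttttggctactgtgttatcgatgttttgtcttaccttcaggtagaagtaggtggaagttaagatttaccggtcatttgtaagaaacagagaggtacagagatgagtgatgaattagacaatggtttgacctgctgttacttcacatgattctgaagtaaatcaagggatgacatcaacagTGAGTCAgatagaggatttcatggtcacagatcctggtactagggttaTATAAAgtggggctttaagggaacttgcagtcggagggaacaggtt
Mmp3: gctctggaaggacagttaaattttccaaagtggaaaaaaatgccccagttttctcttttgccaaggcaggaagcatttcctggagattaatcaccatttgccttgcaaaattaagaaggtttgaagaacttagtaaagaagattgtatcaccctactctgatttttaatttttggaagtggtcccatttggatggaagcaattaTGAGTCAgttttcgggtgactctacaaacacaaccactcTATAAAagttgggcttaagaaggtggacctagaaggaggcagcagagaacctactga

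AP-1 is a transcription factor dimer of Fos and Jun proteins known to act on several Mmp promoters. The first base of the AP-1 match lies at -35 from the annotated start in Mmp13, at -44 in Mmp12 and at -46 in Mmp3. The first base of the TATAAA letters lies at -16 in Mmp13, at +5 in Mmp12 and at -7 in Mmp3. Whether they serve as the TATA box of these starts was not tested. A window was on hand for 31 of the 45 genes, some with several, and both strands were searched for each motif. AP-1 letters were in 4 of the 31 (12.9%), the fourth being Adam19, against 8.97% of 27025 genes. TATA box letters were in 5 of the 31 (16.1%), including Adamts1 and, on the opposite strand only, Mmp8, against 15.7% of all genes. The core of the hypoxia response element (ACGTG) was in 6 of the 31 (19.4%), Timp1 and Mmp14 among them, against 21.8% of all genes. The cyclic AMP response element (TGACGTCA) was in 0 of the 31 (0.0%), against 2.03% of all genes. A motif may overlap another, and a match describes letters in a window and not a bound site.

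Mmp12, the macrophage elastase, varied most among members with a mean of at least 1 CPM, with the highest tumour 16.1 times the lowest. It stood at 4.18, 5.03, 44.6 and 23.6 CPM in propranolol tumours 1 to 4, against 8.97, 15.5, 67.3 and 4.66 CPM in control tumours 1 to 4. Tumour 3 of each group was high and the groups overlapped over almost their whole range. The log2 fold change was -0.32 with an SE of 1.03, 1.0 without control tumour 3 and -1.15 without propranolol tumour 3.

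Mmp13, the main collagenase for fibrillar collagen in mice, stood at 5.59, 9.64, 18.5 and 15.2 CPM in propranolol tumours 1 to 4, against 5.02, 15.0, 39.7 and 4.77 CPM in control tumours 1 to 4. Control tumour 3 was again the highest and control tumour 4 the lowest. Its log2 fold change was -0.40 with an SE of 0.73, and 0.57 without control tumour 3.

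Mmp3, stromelysin-1, which cuts many matrix proteins and activates other Mmp precursors, stood at 32.1, 29.4, 70.9 and 34.6 CPM in propranolol tumours 1 to 4, against 41.7, 39.1, 45.6 and 15.3 CPM in control tumours 1 to 4. Propranolol tumour 3 stood above every other tumour and control tumour 4 below, while the remaining 6 lay close together. Between groups the log2 fold change was 0.24 with an SE of 0.40, and -0.15 without propranolol tumour 3.

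Mmp8, the collagenase stored in neutrophil granules, was scarce, at 0.282, 0.355, 1.6 and 1.15 CPM in propranolol tumours 1 to 4, against 0.127, 0.683, 1.0 and 0.230 CPM in control tumours 1 to 4. The groups overlapped, and the log2 fold change of 0.71 had an SE of 0.72. Mmp27, whose level was also under 1 CPM on average, ranged from 0.121 to 1.79 CPM in propranolol tumours and from 0.230 to 1.36 CPM in control tumours.

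Across the 8 tumours some genes of the cluster moved together, whatever the group. Mmp13 and Mmp12 had a Pearson r of 0.905 on log2 (CPM + 0.5), with an exact permutation p of 0.00213, or 0.0213 after adjustment over the 10 gene pairs. Spearman's rho was 0.881 (adjusted exact permutation p = 0.0362), and r was 0.810 without the 2 tumours farthest from the median. Mmp13 with Mmp8 gave r = 0.840 (adjusted exact permutation p = 0.0394) and rho = 0.905 (0.0362). Mmp12 with Mmp8 gave r = 0.861 (adjusted exact permutation p = 0.0394), while its rho of 0.762 missed the threshold (0.0735). Relations with Mmp8 rest on few reads. It had 5, 6, 26 and 19 in propranolol tumours 1 to 4, against 2, 12, 17 and 4 in control tumours 1 to 4. The other 7 pairs did not pass, the nearest being Mmp3 with Mmp27 at r = 0.770 (adjusted exact permutation p = 0.0518). The tumour numbers were taken to pair the samples, though not every number bore this out. Each number holds only a propranolol and a control tumour, too few for an r of its own. The permutations took no account of group or number. Within numbers, Mmp13 and Mmp12 differed in the same direction in 3 of 4 pairs. These relations were computed after the values had been seen. Pairs of members outside the cluster are not given for comparison. Timp1, on chromosome X, was also highest in tumour 3 of each group, so this order is not particular to the cluster.

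**Figure D3:**
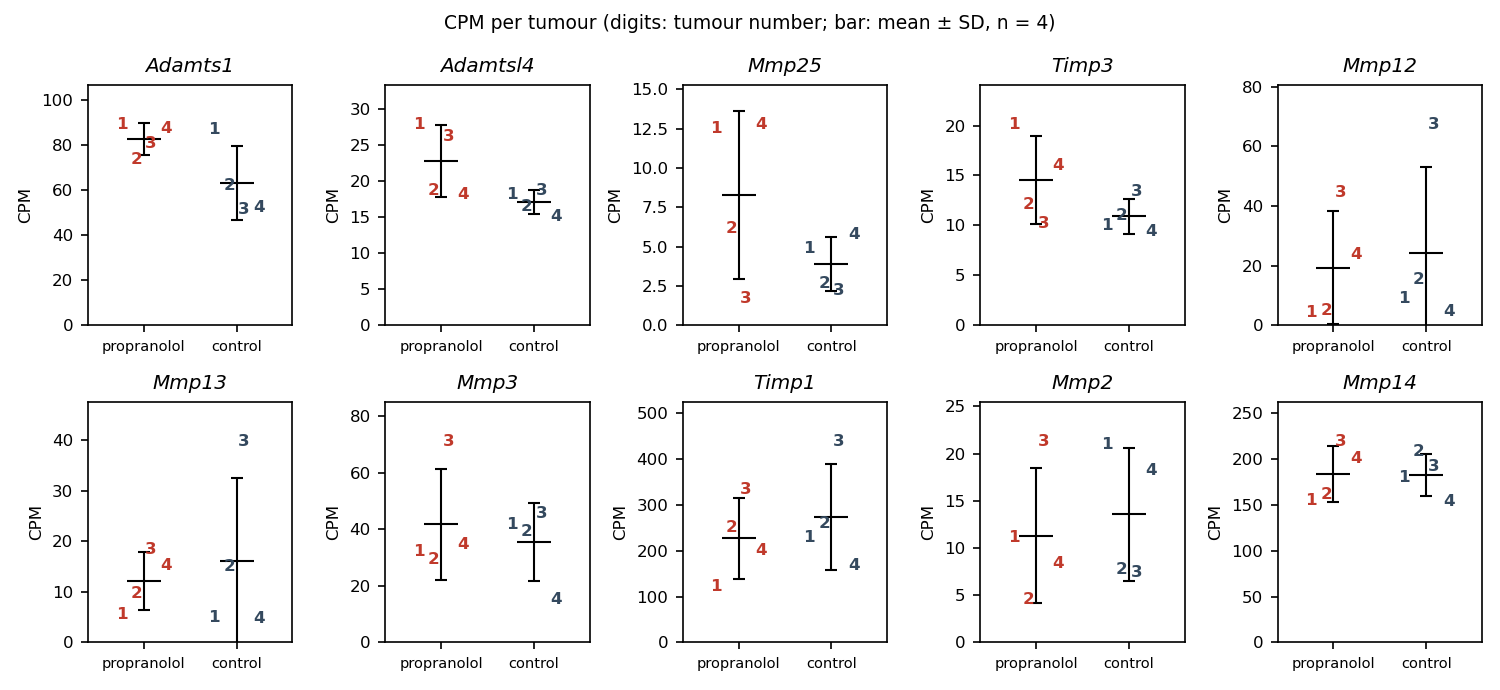
CPM of 10 genes in each propranolol tumour (red digits, left) and control tumour (dark blue digits, right). Digits are tumour numbers, and lines show the mean ± SD (n = 4), cut off at 0 where the SD exceeds the mean. Tumour 3 of each group is high for Mmp12, Mmp13 and Timp1, and Mmp14 lies between 153 and 219 CPM throughout.

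Among the membrane-type enzymes, Mmp14 activates pro-Mmp2 at the cell surface and cuts collagen there. It stood at 155, 161, 219 and 200 CPM in propranolol tumours 1 to 4, against 180, 208, 191 and 153 CPM in control tumours 1 to 4. The ranges overlapped almost completely, and the log2 fold change was 0.0057 with a 95% interval from -0.31 to 0.32. Mmp15, its close relative, averaged 1.2 FPKM, and its log2 fold change was -0.05 (SE 0.29).

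Mmp25, a lipid-anchored enzyme known from leukocytes, was the only member with a fitted change of at least 1 on the log2 scale, a size reached by 2.26% of all genes. It stood at 12.5, 6.15, 1.72 and 12.8 CPM in propranolol tumours 1 to 4, against 4.90, 2.67, 2.18 and 5.75 CPM in control tumours 1 to 4. Propranolol tumours 1 and 4 had the most, and propranolol tumour 3 had less than any control tumour. The log2 fold change was 1.10 with an SE of 0.59, 0.91 with the tumour number as a block (adjusted p = 0.929 in edgeR) and 1.43 without propranolol tumour 3 (adjusted p = 0.641 in edgeR). It was the only member marked as changed in the authors' deposited table, where 0.792% of all genes were so marked, and which gives a log2 fold change of 1.10, a p of 0.0405 and an adjusted p of 0.9997. T cell markers moved with it, summing to 111, 36.2, 4.86 and 147 CPM in propranolol tumours 1 to 4, against 37.1, 17.8, 9.37 and 25.5 CPM in control tumours 1 to 4. Csf3r, a neutrophil and monocyte receptor, stood at 28.4, 14.3, 7.14 and 37.1 CPM in propranolol tumours 1 to 4, against 15.8, 11.9, 10.5 and 14.0 CPM in control tumours 1 to 4. The part of these cells in the Mmp25 values was not tested.

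The gelatinases cut denatured collagen and basement membrane collagen. Mmp2 stood at 11.1, 4.49, 21.2 and 8.32 CPM in propranolol tumours 1 to 4, against 21, 7.68, 7.43 and 18.2 CPM in control tumours 1 to 4. Neither group was uniformly high, and the log2 fold change was -0.27 with an SE of 0.53, and 0.03 without control tumour 1. Mmp9 stood at 17.7, 11.4, 13.6 and 10.8 CPM in propranolol tumours 1 to 4, against 21.3, 22.3, 13.8 and 6.55 CPM in control tumours 1 to 4. The propranolol values all lay inside the control range, and the log2 fold change was -0.26 with an SE of 0.35.

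Mmp11, stromelysin-3, is a stromal enzyme of carcinomas that leaves the cell already active. It stood at 14.7, 18.5, 30.4 and 13.0 CPM in propranolol tumours 1 to 4, against 17.3, 19.1, 26.2 and 20.1 CPM in control tumours 1 to 4. Tumour 3 was the highest of each group, and propranolol tumours 1 and 4 were the lowest of all. As a log2 fold change the difference was -0.11 with an SE of 0.26, and 0.03 without control tumour 3. The rest of the family, Mmp19, Mmp23 and Mmp28, had log2 fold changes from -0.08 (Mmp23) to 0.17 (Mmp28). Over the 14 Mmp genes the median was -0.07, with 6 above 0 and 8 below, and it ran from -0.23 to 0.14 with 1 tumour left out.

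Of the inhibitors, Timp1 stood at 122, 251, 333 and 201 CPM in propranolol tumours 1 to 4, against 229, 259, 437 and 168 CPM in control tumours 1 to 4. Tumour 3 was the highest in each group, and the lowest value was that of propranolol tumour 1. This gave a log2 fold change of -0.27 with an SE of 0.37, and 0.06 without control tumour 3.

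Timp2 stood at 519, 511, 635 and 504 CPM in propranolol tumours 1 to 4, against 520, 563, 586 and 495 CPM in control tumours 1 to 4. All 8 values were close, with propranolol tumour 3 a little above the rest, and the log2 fold change was 0.0036 (SE 0.11). Timp3, which binds to the matrix and also inhibits Adam17, stood at 20.1, 12.1, 10.2 and 16 CPM in propranolol tumours 1 to 4, against 9.99, 11.0, 13.4 and 9.37 CPM in control tumours 1 to 4. Propranolol tumours 1 and 4 lay above every control tumour and the other two lay among them. Its log2 fold change was 0.42 with an SE of 0.22 (adjusted p = 0.999 in edgeR), 0.22 without propranolol tumour 1 and 0.55 without propranolol tumour 3. Timp1 and Timp3 (averaging 250 and 12.8 CPM) each overlap a synapsin gene on the opposite strand (Syn1 and Syn3, averaging 2.54 and 2.38 CPM). The overlap is of whole gene spans, and whether exons overlap was not tested. The sources used here do not say whether counting used strand, so how well reads of these genes were separated is not known.

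**Figure D4:**
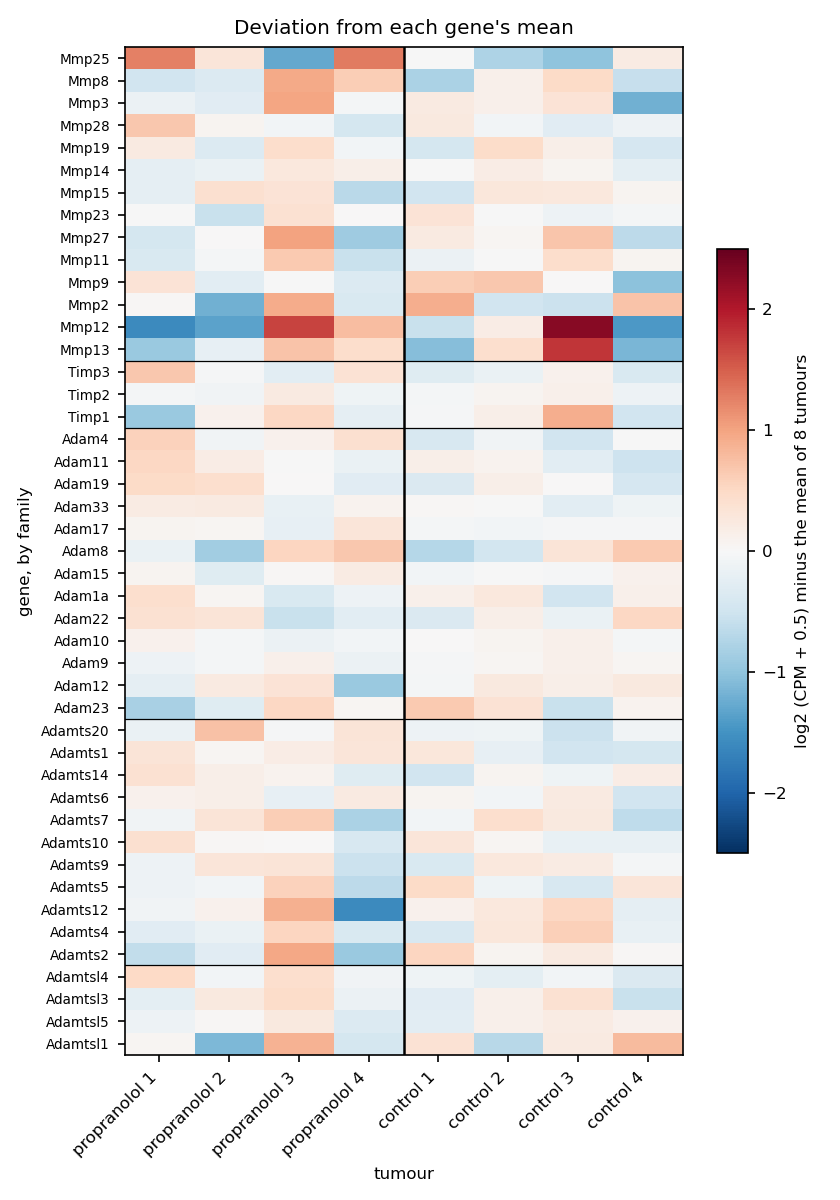
Deviation of each gene from its own mean over the 8 tumours, in log2 (CPM + 0.5), for propranolol tumours (left of the line) and control tumours (right). Red marks tumours above the mean and blue those below. The strongest colours include Mmp12 in tumour 3 of each group and Mmp13 in control tumour 3, and no row separates the groups.

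Several genes of catalytic Adam proteins were steady from tumour to tumour. Adam10, which sheds Notch and many adhesion molecules, stood at 112, 100, 94.7 and 99.2 CPM in propranolol tumours 1 to 4, against 105, 109, 114 and 101 CPM in control tumours 1 to 4. The highest tumour was only 1.21 times the lowest, and the log2 fold change was -0.08 with a 95% interval from -0.27 to 0.11. Adam17, the enzyme that releases tumour necrosis factor from the membrane, stood at 117, 116, 96.9 and 138 CPM in propranolol tumours 1 to 4, against 108, 106, 110 and 110 CPM in control tumours 1 to 4. Propranolol tumours 1, 2 and 4 lay above every control tumour and propranolol tumour 3 lay below them. For Adam17 the log2 fold change was 0.11 with a 95% interval from -0.13 to 0.35.

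Adam9, a widely expressed sheddase, stood at 149, 156, 176 and 146 CPM in propranolol tumours 1 to 4, against 159, 168, 177 and 167 CPM in control tumours 1 to 4. Propranolol tumours 1, 2 and 4 lay below every control tumour, by small steps, and propranolol tumour 3 lay among the controls. Its log2 fold change was -0.10 with a 95% interval from -0.30 to 0.11. Adam33, known in humans as an asthma susceptibility gene, stood at 202, 203, 153 and 186 CPM in propranolol tumours 1 to 4, against 178, 174, 146 and 161 CPM in control tumours 1 to 4. Here 3 propranolol tumours lay above every control tumour, and the log2 fold change was 0.17 with an SE of 0.12. Adam15, a relative with an integrin-binding domain, had a log2 fold change of 0.02 and an interval from -0.23 to 0.28.

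Adam8, an enzyme of leukocytes and activated macrophages, varied more. It stood at 67.0, 41.2, 109 and 121 CPM in propranolol tumours 1 to 4, against 45.9, 54.8, 93.9 and 119 CPM in control tumours 1 to 4. Tumours 3 and 4 were the higher ones in both groups, and the log2 fold change was 0.11 with an SE of 0.41. Adam12, which sheds growth factors, stood at 11.8, 16.2, 17.5 and 6.99 CPM in propranolol tumours 1 to 4, against 13.2, 16.3, 15.4 and 16.4 CPM in control tumours 1 to 4. Its lowest value was in propranolol tumour 4 and the log2 fold change was -0.22 (SE 0.25). Adam19, a sheddase of neuregulin, ranged from 5.65 to 9.94 CPM in propranolol tumours and from 5.06 to 7.74 CPM in control tumours, with a log2 fold change of 0.35 (SE 0.24).

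The remaining 5 Adam genes were scarce. Adam11, Adam22 and Adam23, which lack a working protease site, had log2 fold changes of 0.42 (SE 0.39), -0.06 (SE 0.37) and -0.35 (SE 0.48). Adam4, of a group best known from the testis, ranged from 1.06 to 1.98 CPM in propranolol tumours and from 0.707 to 1.15 CPM in control tumours, with a log2 fold change of 0.70 (SE 0.33). The whole of Adam4 lies within Cox16 on the same strand, over 2504 bases, and Cox16 averaged 9.24 CPM against 1.2 CPM for Adam4, so the Adam4 count is uncertain. Adam1a, another gene of that group, also overlaps other genes and had a log2 fold change of -0.03 (SE 0.30).

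Adamts1 (chromosome 16, 85590715 to 85600001, minus strand, GRCm39) encodes a secreted enzyme that cuts the proteoglycans versican and aggrecan. It stood at 89.2, 73.7, 80.9 and 87.7 CPM in propranolol tumours 1 to 4, against 87.1, 62.2, 51.5 and 52.2 CPM in control tumours 1 to 4. Control tumours 2, 3 and 4 lay below every propranolol tumour, and control tumour 1 lay among these. For Adamts1 the log2 fold change was 0.39 with an SE of 0.17 (adjusted p = 0.999 in edgeR). With 1 tumour left out it ran from 0.31 to 0.59, with 0.59 reached without control tumour 1 (adjusted p = 0.999 in edgeR).

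Adamtsl4 (chromosome 3, 95583511 to 95595228, minus strand, GRCm39) encodes a protein that binds fibrillin-1 in microfibrils. It stood at 27.8, 18.6, 26.1 and 18.2 CPM in propranolol tumours 1 to 4, against 18.1, 16.4, 18.6 and 15.0 CPM in control tumours 1 to 4. Propranolol tumours 1 and 3 stood apart from the rest, while propranolol tumours 2 and 4 lay level with the highest controls. For Adamtsl4 the log2 fold change was 0.41 with an SE of 0.16 (adjusted p = 0.999 in edgeR), and 0.30 without propranolol tumour 1. Neither Adamts1 nor Adamtsl4 remained under an unadjusted p of 0.05 when propranolol tumour 1 or 3 or control tumour 2 or 4 was left out.

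The other proteoglycan-cutting enzymes were near 0 or imprecise. Adamts4, an aggrecanase, ranged from 21.7 to 41.3 CPM in propranolol tumours and from 21.4 to 43.3 CPM in control tumours, with a log2 fold change of -0.15 (SE 0.27). The log2 fold change was -0.13 (SE 0.37) for Adamts5, the other main aggrecanase, and -0.0051 (SE 0.23) for Adamts9, which also cuts versican. Adamts20, a relative at 0.175 FPKM on average, had a log2 fold change of 0.61 with an SE of 0.33.

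Adamts2, which trims the amino end of procollagens, stood at 9.20, 11.7, 28.8 and 7.35 CPM in propranolol tumours 1 to 4, against 21.3, 15.2, 17.0 and 14.7 CPM in control tumours 1 to 4. Propranolol tumours 1, 2 and 4 lay below every control tumour and propranolol tumour 3 lay above all of them. The log2 fold change was -0.26 with an SE of 0.41, and -0.86 without propranolol tumour 3. Adamts14, with the same substrate class, had a log2 fold change of 0.16 (SE 0.18). Adamts12, an enzyme that cuts cartilage oligomeric matrix protein, ranged from 0.790 to 6.65 CPM in propranolol tumours and from 2.82 to 5.07 CPM in control tumours, and both the highest and the lowest value were in propranolol tumours (3 and 4). Adamts7, its relative, and the fibrillin-associated Adamts6 and Adamts10 had log2 fold changes of 0.06, 0.13 and 0.03.

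Among the remaining Adamts-like genes, Adamtsl5 ranged from 42.8 to 64.5 CPM in propranolol tumours and from 45.4 to 63.0 CPM in control tumours, with a log2 fold change of -0.09 (SE 0.15). Adamtsl3 had a log2 fold change of 0.14 (SE 0.23). Adamtsl1 had 11, 0, 24 and 5 reads in propranolol tumours 1 to 4, against 14, 3, 13 and 24 reads in control tumours 1 to 4, too few to compare. The median log2 fold change was 0.03 over the 11 Adamts genes and 0.03 over the 4 Adamtsl genes. It was 0.02 over the 13 Adam genes and 0.0036 over the 3 Timp genes.

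The members differed in how widely they ranged between tumours. Of the 41 members averaging at least 1 CPM, 7 had a highest tumour at least 4 times the lowest, where 8.88% of all such genes did. They were Mmp12, Adamts12 (8.42 times), Mmp13 (8.31 times), Mmp25 (7.40 times), Mmp2 (4.73 times), Mmp3 (4.63 times) and Adam23 (4.51 times). At 2 times or more there were 25 of 41 members, where 28.7% of all such genes reached it. At the other end stood Adam9 and Adam10 (each 1.21 times) and Timp2 (1.28 times).

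The members were then set against marker lists of other cell types and of the hypoxia response, each taken as the mean log2 (CPM + 0.5) of its genes, in 360 relations of 45 genes with 8 lists over the 8 tumours. In all, 9 relations passed an adjusted exact permutation p of 0.05 for Pearson's r, and 3 of these passed for Spearman's rho too. Mmp25 followed the T cell list with r = 0.979 (exact permutation p = 0.000174, adjusted p = 0.0268) and rho = 0.929 (adjusted p = 0.0731), and r was 0.964 without the 2 tumours farthest from the median of the list. Mmp11 ran against that list, with r = -0.969 (exact permutation p = 0.000422, adjusted p = 0.0304), rho = -0.976 (adjusted p = 0.0357) and r = -0.931 without the same 2 tumours. Adam9 did so too, with r = -0.973 (exact permutation p = 0.000223, adjusted p = 0.0268), rho = -0.952 (adjusted p = 0.0587) and r = -0.964 without them. Thus tumours rich in T cell RNA had more Mmp25 RNA and less Mmp11 and Adam9 RNA relative to the library. The tumours left out were propranolol tumours 3 and 4, and within tumour numbers the list and the gene differed in the same direction in 4 of 4 for Mmp25, and in opposite directions in 4 of 4 for Mmp11 and 3 of 4 for Adam9.

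The macrophage list, which holds Adgre1, Csf1r and C1qa, gave the same 3 genes, with r = 0.958 for Mmp25, -0.959 for Mmp11 and -0.956 for Adam9 (adjusted exact permutation p = 0.0437 each). Spearman's rho was 0.905, -0.952 and -0.929 (adjusted p = 0.103, 0.0587 and 0.0731), and r without propranolol tumours 1 and 3 was 0.917, -0.964 and -0.944. That list summed to 4601, 3011, 2098 and 4145 CPM in propranolol tumours 1 to 4, against 3373, 2791, 2273 and 2648 CPM in control tumours 1 to 4, an order close to that of the T cell list. The lists are therefore not independent of one another. Not every gene of the macrophage list shared its order. Mrc1 stood at 320, 350, 433 and 186 CPM in propranolol tumours 1 to 4. In control tumours 1 to 4 Mrc1 stood at 426, 419, 421 and 341 CPM. Cd14 varied little, from 76.9 to 101 CPM. Adam12 ran against the mast cell list at r = -0.873 (exact permutation p = 0.000347, adjusted p = 0.0304) and rho = -0.905 (adjusted p = 0.103), with r = -0.890 without propranolol tumours 3 and 4.

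Mmp11 and Adamtsl5 followed the epithelial list, at r = 0.948 (exact permutation p = 7.44e-05, adjusted p = 0.0268) and r = 0.905 (exact permutation p = 0.000794, adjusted p = 0.0437), each with rho = 0.976 (adjusted p = 0.0357). Without propranolol tumours 3 and 4 the values were 0.853 for Mmp11 and 0.892 for Adamtsl5. With the list taken as its summed CPM, where Krt20 dominates, they were 0.780 for Mmp11 and 0.660 for Adamtsl5. The genes of this list did not all move together. Krt8 was highest in control tumour 4 (14.0 CPM), where Krt20 was lowest (44.0 CPM). Cdh1 was scarce, at 0.569 to 3.33 CPM. The hypoxia response list missed the threshold narrowly, with r = 0.909 for Mmp12 (adjusted exact permutation p = 0.0536) and r = 0.881 for Mmp3 (adjusted exact permutation p = 0.0614). For Mmp2 the nearest list was that of fibroblasts, at r = 0.893 (adjusted exact permutation p = 0.0919). No relation of Adamts1 or Adamtsl4 with any list passed. All these relations were computed after the values had been seen, each rests on 8 tumours that share both group and number, and what the markers contribute to any member was not tested.

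**Figure D5:**
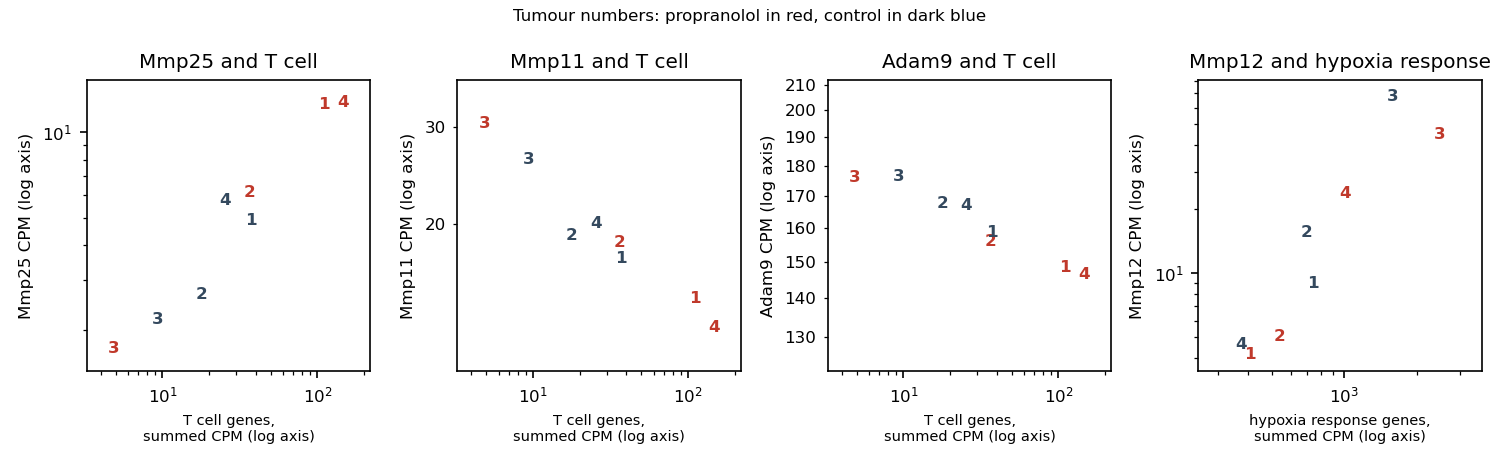
CPM of Mmp25, Mmp11 and Adam9 against the summed CPM of the T cell genes, and of Mmp12 against that of the hypoxia response genes, per tumour (log axes). Digits are tumour numbers, propranolol in red and control in dark blue. Mmp25 climbs with the T cell sum while Mmp11 and Adam9 decline, in both groups, and propranolol tumours 1 and 4 lie at the T-cell-rich end.

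Other genes of matrix proteolysis and shedding gave no call either. Of 118 listed genes 94 were tested, 0 passed an adjusted p of 0.05 in edgeR, and 3 (3.19%) were under an unadjusted p of 0.05, against 1.95% of all genes. These were Ctsk, Hpse and Tnfrsf1b. The median log2 fold change was 0.07, with 56 above 0 and 38 below. Ctsk, cathepsin K, a collagen-cutting lysosomal protease, averaged 3.72 ± 0.995 CPM in propranolol tumours and 5.99 ± 2.11 CPM in control tumours (SD, n = 4 each), with a log2 fold change of -0.69 and an SE of 0.30. Hpse, heparanase, which cuts heparan sulphate, averaged 285 ± 39.9 CPM in propranolol tumours and 235 ± 17.2 CPM in control tumours (SD, n = 4 each), with a log2 fold change of 0.28.

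Tnfrsf1b, a tumour necrosis factor receptor shed by Adam17, averaged 150 ± 26.0 CPM in propranolol tumours and 119 ± 12.1 CPM in control tumours (SD, n = 4 each), with a log2 fold change of 0.32. It was the only one of 24 substrates of Adam10 or Adam17 under an unadjusted p of 0.05 in edgeR. App, the amyloid precursor protein and another such substrate, had a log2 fold change of 0.19. All 8 regulators of these enzymes, the iRhoms and tetraspanins, lay above that level, the nearest being Rhbdf1 with a log2 fold change of -0.16. So did the 10 proteoglycan and glycoprotein substrates of Adamts enzymes, where Bgn, biglycan, had a log2 fold change of -0.56 with an SE of 0.27.

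None of 9 plasminogen activators, their receptor and serpins was under an unadjusted p of 0.05, and their median log2 fold change was -0.19. Serpinh1, the collagen chaperone Hsp47, averaged 582 ± 55.9 CPM in propranolol tumours and 665 ± 114 CPM in control tumours (SD, n = 4 each). Neither was any of 6 procollagen-processing or astacin genes (median -0.0095) or of 14 membrane proteases and protease regulators (median 0.11). Among the 16 cathepsins and cystatins the median was 0.13 and Ctsk alone was under that level. Ctsw, a cathepsin of cytotoxic lymphocytes, averaged 14.1 ± 11.9 CPM in propranolol tumours and 5.37 ± 3.11 CPM in control tumours (SD, n = 4 each), with a log2 fold change of 1.40 and an SE of 0.84.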

How the data were processed

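Bulk RNA-seq of 8 tumours was read from 1 table deposited by the authors, which holds raw read counts and FPKM per gene, per the file headers, and the authors' own log2 fold change, p-value and adjusted p for each gene. Every gene in it exceeds 1 CPM in at least 2 libraries. Per the submitters' processing notes, the tools used were HISAT2 2.1.0, featureCounts 1.6.2, fastp 0.19.3, edgeR 3.24.3, StringTie 1.3.4d and DESeq2 1.22.1, without roles, on build GRCm39. How multi-mapped reads and strand were treated is not stated there.

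Counts were tested with edgeR 4.0.16 in R 4.3.3 (TMM scaling, its default filter, robust quasi-likelihood F test, two-sided, 14006 genes kept). Limma 3.58.1 (voom) and DESeq2 1.42.0 were alternatives, with other scalings, no filter, a replicate block and each tumour left out. Same-numbered tumours had correlated deviations (0.190 to 0.508), against -0.475 to 0.383 for other numbers, so numbers were taken to pair samples. Propranolol tumours 2 and 3 correlated most with the control of their number (0.311 and 0.508). Propranolol tumour 1 correlated more with control tumour 4 (0.383) than with control tumour 1 (0.190). Propranolol tumour 4 correlated more with control tumour 1 (0.315) than with control tumour 4 (0.277), so the pairing is uncertain. No 2 libraries agreed within sampling noise (chi-square per degree of freedom at least 8.97). Totals of 15483409 to 17511937 counts limit precision mainly for genes under 1 CPM.

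The members, lists and tests were chosen with earlier results of these data known. Members picked for closer report were those under an unadjusted p of 0.05, the highest 2 of each family in FPKM, the 5 with the widest range, and a set fixed by role. Some of these are given without their CPM in each tumour. Of each related list at most the 2 genes with the smallest p were named. Correlations used the mean log2 (CPM + 0.5) of each list and exact permutation. Promoters came from RefSeq (GRCm38.p6), whose coordinates need not match those of GRCm39. By whole gene span, 14 of the members overlap another gene of the table, which leaves their counts uncertain, and not every such overlap is reported here. Whether exons overlap was not tested.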

Additional observations from a re-analysis of the deposited data

Results flagged for a closer look

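Of 90 combinations of gene and group, 3 held a tumour far from the other 3 of its group, where chance marks about 1 in 20. Mmp3 in propranolol tumours was 32.1, 29.4, 70.9 and 34.6 CPM, and the gap above the other 3 filled 0.877 of the range. Timp2 in propranolol tumours was 519, 511, 635 and 504 CPM, with a gap of 0.885 of the range, again at propranolol tumour 3. Adamts20 in control tumours was 1.34, 1.37, 0.884 and 1.38 CPM, with control tumour 3 low and a gap of 0.911 of the range.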

How the results depend on the processing

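No member passed an adjusted p of 0.05 under any alternative, namely DESeq2's size factors, library totals, no filter, the replicate block, DESeq2, limma-voom and each tumour left out, and neither did any related gene. With a tumour left out, members at an unadjusted p under 0.05 numbered 0 to 5, the 5 without propranolol tumour 3, where 7.23% of all genes were called. Members whose groups did not overlap also numbered 0 to 5, the 5 again without propranolol tumour 3, where 5.72% of all genes did not overlap, and the Adam median ran from 0.0011 to 0.12. Of the 30 members picked for closer report, 15 kept the sign of their log2 fold change in every alternative. The sign of Mmp14 turned with the replicate block (-0.000452) and limma-voom (-0.000386), and with a tumour left out (-0.089 to 0.079). For the other 14, the sign turned only with a tumour left out, over -0.052 to 0.11 for Adam15, -0.12 to 0.38 for Adam8, -0.12 to 0.16 for Adamts10, -0.63 to 0.19 for Adamts12, -0.41 to 0.057 for Adamts4, -0.45 to 0.071 for Adamts5 and -0.12 to 0.15 for Adamts9. It turned likewise over -0.42 to 0.036 for Mmp11, -1.15 to 1.0 for Mmp12, -0.71 to 0.57 for Mmp13, -0.77 to 0.029 for Mmp2, -0.15 to 0.39 for Mmp3, -0.52 to 0.058 for Timp1 and -0.081 to 0.051 for Timp2. The cause was not tested. The replicate block changed no adjusted call. With 4 tumours a group, the 17 members whose intervals reached past 1 on the log2 scale could hold a change of that size undetected, and counts limit Mmp8, Mmp27, Adam11 and Adamtsl1, under 1 CPM on average.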
